A study of Mus musculus with 16 samples.

Results

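Tumors that arose in the kidney and in the liver of reprogrammable mice were compared directly with each other, gene by gene, and each difference was set beside the one between normal kidney and normal liver. The comparison used 6 of the 16 mouse arrays of the series, kidney tumor 1 to 3 against liver tumor 1 to 3, taken by their titles. Normal kidney and normal liver, 3 arrays each, gave the organ levels. A further 3 arrays of secondary kidney tumors and 1 of embryonic stem (ES) cells are quoted where they bear on a result. Reprogrammable mice express reprogramming factors while they receive doxycycline (Dox). Kidney tumors came from mice given Dox from 4 weeks of age for 7 days and were taken 7 days after it was withdrawn, and the normal kidney was of the same age. The liver tumors were primary tumors of reprogrammable mice, and their treatment and the age of the normal livers are left unstated in the labels. The secondary tumors were kidney tumors transplanted under the skin of immunodeficient mice. Per the labels, the mice were made from the ES cell line, on a 129xC57BL6 F1 or mixed background, and the tumors grew in chimeras, so that a tumor sample may hold cells of the ICR host strain as well. Whether the 3 arrays of a group are 3 animals is not said in the labels, and a p-value then speaks only of the spread among these samples, which may be technical.

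The nephron filters plasma and reclaims salt, glucose, amino acids and phosphate through transporters that differ from one tubule segment to the next, under factors such as Pax2 and Pax8. Hepatocytes secrete most plasma proteins, run the urea cycle, make bile acids and detoxify drugs through cytochrome P450 enzymes. Proximal tubule cells and hepatocytes share part of their metabolism, among it gluconeogenesis, fatty acid oxidation and the nuclear receptor Hnf4a. Reprogramming with Pou5f1, Sox2, Klf4 and Myc turns off the program of the starting cell and turns on that of pluripotent cells, and cells stopped on the way can carry both.

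All levels below are log2 of the deposited intensity, so that a difference of 1 is 2-fold. Background signal compresses folds of dim genes, and no detection call accompanied the values to mark such genes. Levels of different genes are not compared, since each gene has its own probes. Several arrays stood apart. Normal liver 1 and 2 carried kidney transcripts: the phosphate transporter Slc34a1 read 11.29, 9.54 and 7.75 in normal liver 1, 2 and 3, against 8.09, 8.37 and 7.63 in the liver tumors. The main counts of organ genes are therefore also given without those 2 arrays. Adipocyte genes were high in normal liver 1 and normal kidney 2 (mean levels of 10.31 and 9.64, against 6.61 to 7.19 in the primary tumors). Xist, the transcript of the inactive X chromosome, was high in kidney tumor 2 and 3 and liver tumor 2 and 3, which leaves kidney tumor 1 and liver tumor 1 as the arrays without it. In bulk tissue, fewer cells of a type and less RNA per cell cannot be told apart.

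The tumors resembled each other more than the organs did, but the genes that part kidney from liver still parted the tumors. Across all 19938 genes, a kidney tumor array correlated with a liver tumor array at 0.906 to 0.933, a normal kidney with a normal liver array at 0.847 to 0.873, and arrays of the same tumor group with each other at 0.970 to 0.990. Between the tumors 2584 genes, 13% of those tested, passed the test (limma, Benjamini-Hochberg adjusted p under 0.05), 1407 of them higher in kidney tumors and 1177 higher in liver tumors. A difference of at least 2-fold was called for 466 genes higher in kidney tumors (2.34%) and 621 higher in liver tumors (3.11%). The tumor difference and the organ difference, which share no array, correlated at 0.788 across genes, which are not independent replicates. For 3350 genes (16.8%) the difference between the tumors was itself called different from that between the organs.

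**Figure D1:**
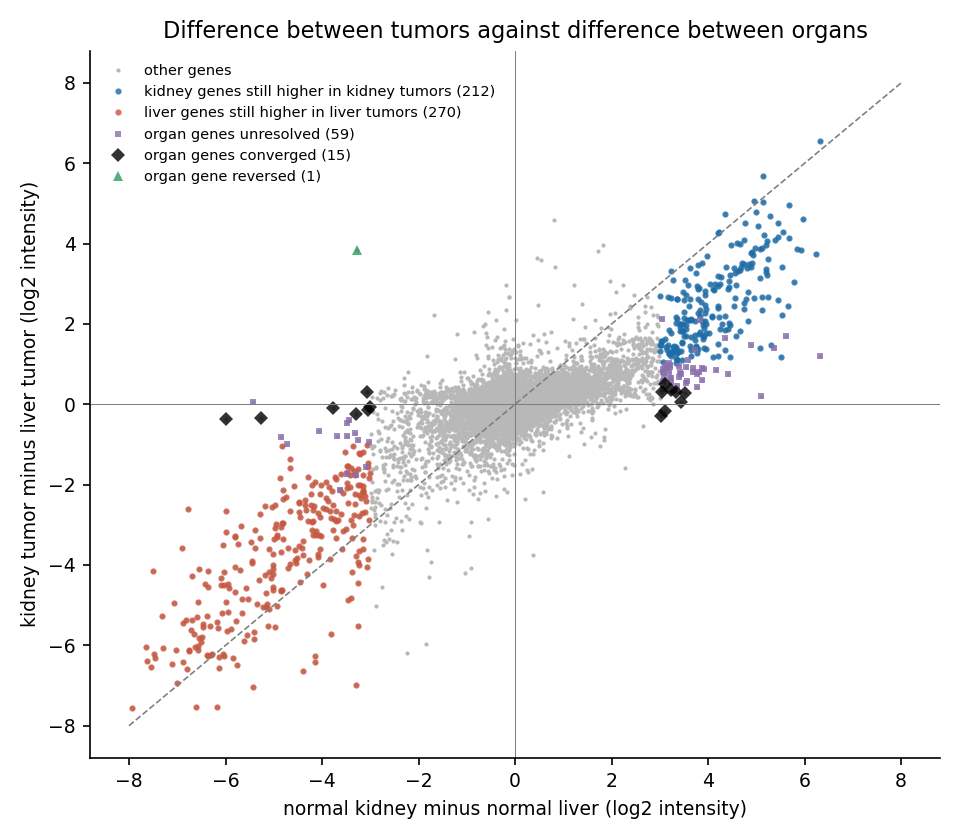
Each point is a gene, with the normal kidney minus normal liver difference (log2) on the x axis and the kidney tumor minus liver tumor difference (log2) on the y axis; the dashed line marks equal differences. Of the organ genes, 212 kidney genes and 270 liver genes stayed apart in the tumors in the direction of their organ, 15 lay near 0 on the y axis, and Cyp4a14 lay above it from the liver side.

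Kidney genes were defined as those called between the normal organs and at least 3 log2 units (8-fold) higher in normal kidney, which gave 264. The last gene inside this limit was Slc4a9, at 3.005, and the first outside was Emx2, just under it. In the tumors, 212 of them (80.3%) were still called at least 2-fold higher on the kidney side, where the background over all genes was 2.34%. A further 8 had converged, meaning that the 95% interval of the tumor difference lay wholly between -1 and 1, as it did for 86.5% of all genes. None was reversed, 44 were unresolved, and 262 of the 264 differences had the sign of the organ difference. Without normal liver 1 and 2 the choice gave 298 kidney genes, of which 229 were still higher and 16 had converged, and the median gene kept 46.3%, against 52.4% with all normal arrays. Over the 264, the median difference was 3.86 between the organs and 2.02 between the tumors, and the median gene kept 52.4% of its organ difference (quartiles 36.1% and 71.7%). These shares use the normal arrays that chose the genes and are given as a description.

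The lost part lay mostly on the kidney tumor side. The calls against normal tissue share the normal arrays that chose the genes, which favors a fall from the own organ. They are given as a description. Of the kidney genes, 224 were called lower in kidney tumors than in normal kidney, against 28.1% of all genes, and 2 were called higher, against 21.7%. In liver tumors 32 of them were called lower than in normal liver (30.7% of all genes) and 65 higher (21.5%), 16 of the 65 by at least 4-fold. Leaving out normal liver 1 and 2, 259 of the 298 kidney genes were called lower in kidney tumors (27.3% of all genes) and 2 higher (21.1%). In liver tumors 3 were then called lower (17.6%) and 78 higher (13.7%), 35 of the 78 by at least 4-fold. The 3 kidney tumors differed in this: their mean level over the 264 genes was 10.24, 9.84 and 9.21, between 11.47 to 11.52 in normal kidney and 7.46 to 7.75 in liver tumors. Kidney tumor 1, with the highest kidney gene level, had the lowest mean over 38 cell cycle genes of the 3 (9.94, against 10.58 and 10.72). Whether the amount of normal tubule in the samples played a part was not tested.

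**Figure D2:**
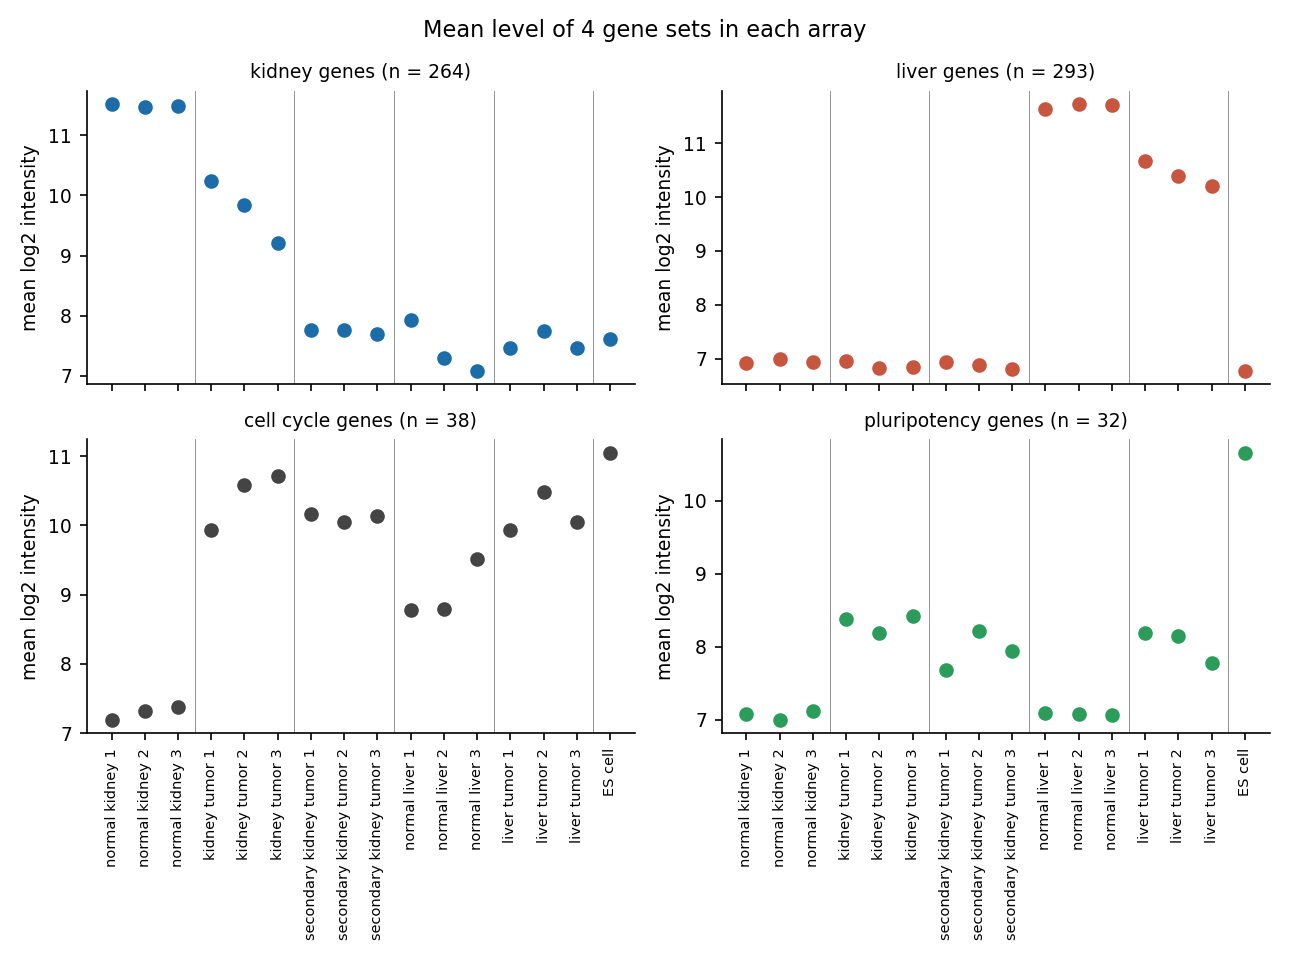
Mean log2 intensity of 4 gene sets in each of the 16 arrays, 1 point per array, with vertical lines between groups. Kidney genes lay at 9.21 to 10.24 in kidney tumors, between normal kidney and liver tumors, liver genes lay at 10.21 to 10.67 in liver tumors, and the cell cycle set lay at 9.94 to 10.72 in all 6 primary tumors.

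Transporters of the proximal tubule gave the largest differences in favor of the kidney tumors. Slc13a1, the sulfate transporter of the proximal tubule, read 12.91, 12.49 and 11.87 in the kidney tumors and 5.96, 6.16 and 5.48 in the liver tumors, with 12.77 to 12.92 in normal kidney. The tumor difference of 6.56 ± 0.42 (SE, limma adjusted p = 1.53e-07) was 104% of the organ difference. Normal liver 1 to 3 read 7.77, 6.26 and 5.62. Normal liver 1 and 2, which carried kidney transcripts, make that organ difference smaller and the share larger. Slc5a12, a sodium-coupled lactate transporter, read 11.63, 12.29 and 11.45 against 6.26, 6.12 and 5.98, a difference of 5.67 ± 0.55. The brush border protease Mep1a lay at 12.53, 11.90 and 10.73 in kidney tumors and at 6.83, 7.44 and 6.04 in liver tumors (4.95 ± 0.56). In each of these genes the 2 groups were far apart, and kidney tumor 3 was the lowest kidney tumor in each. Of 30 measured proximal tubule genes, 21 were called higher in kidney tumors, 1 higher in liver tumors and 8 did not pass. Over all genes 13% were called. With 1 tumor array left out, 18 to 25 were higher in kidney tumors. The median difference was 2.49, against 4.22 between the organs and 0.03 over all genes. Without normal liver 1 and 2 the median between the organs was 5.06. The 1 on the liver side was Slc22a30, an organic anion transporter, at -2.18.

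More distal segments were kept as well. Umod, the most abundant urinary protein and a product of the thick ascending limb, read 13.05, 12.54 and 11.88 in kidney tumors against 7.36, 8.27 and 6.67 in liver tumors (5.05 ± 0.54, adjusted p = 2.79e-05), where normal kidney read 13.13 to 13.24. Slc12a3, the thiazide-sensitive salt transporter of the distal tubule, read 12.18, 11.81 and 11.46 against 7.39, 6.97 and 6.91, a difference of 4.73 ± 0.41. For the lists that follow, 13% of all genes were called between the tumors. Of 18 loop of Henle and distal tubule genes, 14 were called higher in kidney tumors and none in liver tumors. Their median was 2.33 against 3.38 between the organs. In the collecting duct 14 of 17 were called higher, with a median of 1.35 against 2.71. Scnn1g, a subunit of the epithelial sodium channel, was the largest of them at 3.07 ± 0.30, with 10.13, 9.26 and 8.48 in kidney tumors and 6.09 to 6.30 in liver tumors. Of 8 podocyte genes 4 were called higher in kidney tumors, with a median of 0.54. One of the 4, Cdkn1c, an imprinted cell cycle inhibitor, differed by 1.15 ± 0.17 between the tumors but by 0.13 between the organs.

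Havcr1 ranked among the 10 largest differences in favor of kidney tumors without being a kidney gene. It encodes kidney injury molecule 1, which is low in healthy tubules and rises in damaged ones. It read 7.39, 7.72 and 7.56 in normal kidney, 12.17, 11.95 and 9.70 in kidney tumors, and 7.01, 6.55 and 6.51 in liver tumors. All kidney tumors lay above all other arrays quoted, and kidney tumor 3 was 2.24 log2 units below the next. The difference between the tumors was 4.58 ± 0.46 (adjusted p = 1.4e-05), and it differed from that between the organs by 3.77 (adjusted p = 0.0017).

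Transcription factors of the kidney lineage were kept less evenly. Pax8 read 11.70, 10.78 and 10.08 in kidney tumors and 7.96, 7.85 and 8.13 in liver tumors, a difference of 2.87 ± 0.31 (adjusted p = 2.6e-05), with 11.38 to 11.68 in normal kidney. Hoxd8, a homeobox gene of the trunk and kidney, differed by 2.63 ± 0.32. Pax2 differed by 0.87 ± 0.17 (adjusted p = 0.00444), 43.4% of its organ difference, with 9.03, 8.78 and 8.32 in kidney tumors and 8.09, 7.60 and 7.83 in liver tumors. The groups did not overlap in these 3 genes. Of 28 such factors, 16 were called higher in kidney tumors and none in liver tumors (57.1%, against 13% of all genes). The other 12 did not pass, and the median was 0.69, against 1.499 between the organs. Emx2, required for kidney development, was near 0. It read 9.67 to 9.90 in normal kidney, 8.21, 8.41 and 7.55 in kidney tumors, 7.96, 7.89 and 7.87 in liver tumors and 6.65 to 7.01 in normal liver. It had fallen by 1.73 in kidney tumors and risen by 1.12 in liver tumors, and the tumor groups overlapped.

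Liver genes, chosen in the same way on the liver side, numbered 293, with Hpd the last inside at -3.01 and Tm6sf2 the first outside at -2.99. In the tumors 270 (92.2%, against 3.11% of all genes) were still called at least 2-fold higher on the liver side. A further 7 had converged, 1 was reversed and 15 were unresolved. Without normal liver 1 and 2, 277 of 322 were still higher and 27 had converged, and the median gene kept 71.6%. The median difference was -4.57 between the organs and -3.36 between the tumors (negative values are higher in liver), and the median gene kept 74.5% of its organ difference (quartiles 56.5% and 90.7%). In liver tumors 217 liver genes were called lower than in normal liver, against 30.7% of all genes, and 5 higher, against 21.5%. These were 173 of 322 (17.6% of all genes) and 6 (13.7%) without normal liver 1 and 2. Here too the calls share the normal arrays that chose the genes and are a description. The mean level of the liver genes was 10.67, 10.39 and 10.21 in liver tumors and 11.63 to 11.73 in normal liver. In kidney tumors it was 6.82 to 6.97, the range of normal kidney (6.91 to 6.99) or just below it.

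Secreted plasma proteins had the largest share of called genes of the 25 lists. Ahsg, a plasma glycoprotein of hepatocytes, read 13.87, 13.72 and 13.73 in liver tumors and 13.84, 13.89 and 13.90 in normal liver, against 6.29, 5.98 and 6.44 in kidney tumors. The difference between the tumors was -7.53 ± 0.22 (adjusted p = 3.7e-11). Alb, serum albumin, read 13.75, 13.54 and 13.74 in liver tumors and 7.41, 6.88 and 7.49 in kidney tumors, a difference of -6.42 ± 0.35. Both liver groups were at the top of the scale in these genes, where an array can compress differences. Of 37 such genes, 36 were called higher in liver tumors (97.3%, against 13% of all genes called). The exception was complement factor B (Cfb, -1.14, limma adjusted p = 0.101). The median was -5.57 between the tumors and -5.41 between the organs. Hrg, a histidine-rich glycoprotein, parted the tumors more than the organs, -6.63 against -4.40 (difference between these -2.23, adjusted p = 0.0012), and it read 9.35, 8.39 and 8.25 in normal kidney but 5.94, 5.61 and 5.75 in kidney tumors. Fgl1, a fibrinogen-like protein of hepatocytes, read 13.30, 13.03 and 13.11 in liver tumors, above the 12.47 to 12.65 of normal liver, and 6.21, 6.23 and 5.88 in kidney tumors (-7.04 ± 0.16).

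Hepatic metabolism was kept too, but at a lower level. Cps1, the first enzyme of the urea cycle, read 13.39, 11.98 and 11.46 in liver tumors, 13.45 to 13.54 in normal liver and 6.12 to 6.17 in kidney tumors, a tumor difference of -6.12 ± 0.33. Tdo2, which opens the breakdown of tryptophan, read 12.42, 10.35 and 9.72 in liver tumors against 12.92 to 13.00 in normal liver and 6.36 to 7.32 in kidney tumors. In both genes liver tumor 1 was the closest to normal liver. Of 31 such genes 27 were called higher in liver tumors and none in kidney tumors (87.1%, against 13% of all genes). Their median was -3.58 against -5.48 between the organs. In liver tumors 28 of the 31 had fallen from normal liver (30.7% of all genes had), and none had risen.

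The cytochrome P450 genes of the Cyp2c family showed that neighbors could go different ways. Cyp2c29, a hepatic drug- and steroid-metabolizing enzyme, was kept, at 11.68, 11.41 and 11.60 in liver tumors against 5.22 to 5.32 in kidney tumors (-6.31 ± 0.09), with 12.88 to 13.07 in normal liver. Cyp2c39 read 12.54, 11.92 and 11.52 in liver tumors but 8.17, 8.72 and 9.12 in normal liver, so that the tumor difference of -6.98 ± 0.24 was larger than the organ difference of -3.30. It had risen by 3.32 from normal liver (adjusted p = 6.4e-07), while Cyp2c29 had fallen by 1.41. Cyp2c55 had converged: it read 5.24, 5.78 and 5.58 in liver tumors and 5.22, 5.25 and 5.10 in kidney tumors, against 10.34 to 10.71 in normal liver, and it had fallen by 5.01. The probes of such near-identical paralogs can cross-hybridize, so the split of signal among Cyp2c, Cyp4a, Mup, Ugt2b, Ces1 and Serpina1 genes is uncertain. The start regions of the 3 Cyp2c genes and of Cyp3a11, a P450 gene kept in the tumors, are shown beside these levels. Only starts with a motif match are shown, and whether these stretches bear on the levels was not tested. They run from 120 bases before to 20 after the start in RefSeq (GRCm38.p6). Capitals mark TATAAA in the Cyp2c genes and the HNF4 motif CAAAGTCCA in Cyp3a11.
Cyp2c29, kept (chr19:39286965-39287104, + strand): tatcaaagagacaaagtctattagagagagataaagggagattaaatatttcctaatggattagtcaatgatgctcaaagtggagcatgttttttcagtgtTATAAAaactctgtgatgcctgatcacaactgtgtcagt
Cyp2c39, higher than in normal liver (chr19:39510702-39510841, + strand): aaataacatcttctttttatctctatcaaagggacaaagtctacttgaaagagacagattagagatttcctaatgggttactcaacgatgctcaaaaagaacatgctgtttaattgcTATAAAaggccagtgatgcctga
Cyp2c55, converged (chr19:39006899-39007038, + strand): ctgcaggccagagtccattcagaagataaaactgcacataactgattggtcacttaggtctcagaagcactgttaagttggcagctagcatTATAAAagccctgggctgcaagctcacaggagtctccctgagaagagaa
Cyp3a11, kept (chr5:145879835-145879974, - strand): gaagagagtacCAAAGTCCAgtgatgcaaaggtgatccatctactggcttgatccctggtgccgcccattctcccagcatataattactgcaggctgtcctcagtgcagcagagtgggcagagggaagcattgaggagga

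In these stretches Cyp2c29 and Cyp2c39 were identical at 81.2% of aligned bases, and Cyp2c55 was identical to them at 70.2% and 69.2%. RefSeq gives Cyp2c39 a further start, whose promoter held no TATAAA. Over the full promoters, 250 bases before to 50 after each start, TATAAA or its reverse TTTATA stood in 24.1% of the 253 promoters of liver genes still higher, 12.3% of the 212 of kidney genes still higher, and 11.5% of all 19116 promoters of measured genes. CAAAGTCCA or its reverse TGGACTTTG stood in 2.37%, 1.42% and 0.481%, and the C/EBP motif TTGCGCAA, its own reverse, in 0.395%, 0 and 0.23%. Each stretch shown held 1 of these motifs, so none overlapped, and a match is a description of letters only.

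Liver transcription factors parted the tumors by less than the plasma protein and metabolism lists did. Nr5a2, a nuclear receptor of bile acid synthesis, read 9.75, 9.18 and 9.12 in liver tumors and 6.14, 6.19 and 6.24 in kidney tumors, a difference of -3.16 ± 0.19 (adjusted p = 7.04e-08). Creb3l3, a hepatic factor of lipid metabolism, differed by -2.90 ± 0.11, and Cebpa, a factor of hepatocyte differentiation, by -1.57 ± 0.19. Hnf4a, which both organs use, read 11.74, 11.45 and 10.35 in kidney tumors and 12.12, 11.57 and 11.09 in liver tumors, and the groups overlapped (-0.42 ± 0.30, 95% interval -1.06 to 0.23). It had fallen from its normal organ in both, by 1.70 in kidney and 0.89 in liver tumors. Of 21 such factors 11 were called higher in liver tumors and none in kidney tumors (52.4%, against 13% of all genes). Their median was -0.82 against -2.37 between the organs.

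Of the 21, 4 that early endoderm also uses are described here and were picked after their values were seen. Foxa1, a pioneer factor of endoderm, read 6.97 to 7.94 in normal kidney, 9.34, 9.71 and 9.83 in kidney tumors, 9.12, 10.07 and 9.32 in liver tumors, and 9.82 to 9.94 in normal liver. The tumors differed by 0.13 ± 0.25 (95% interval -0.42 to 0.67), where the organs differed by -2.38. Gata6, another endodermal factor, read 10.41, 10.04 and 10.32 in kidney tumors and 9.87, 11.20 and 10.90 in liver tumors (-0.40 ± 0.25, interval -0.95 to 0.14), with 7.99 to 8.13 in normal kidney. Gata4 read 10.20, 9.72 and 9.99 against 9.47, 11.11 and 10.66, and its interval of -1.08 to 0.19 reached just past the limit. All 3 had risen in kidney tumors, by 2.13, 2.18 and 2.49, and the tumor groups overlapped in each. Hhex, a factor of the liver bud, rose by 1.86 in kidney tumors and fell by 1.03 in liver tumors, but was still 0.80 ± 0.23 higher in liver tumors (adjusted p = 0.0365), a call that did not pass under 9 of 17 alternatives. Without liver tumor 1, Gata4 and Gata6 were called higher in liver tumors, by 0.91 and 0.80. Between kidney tumor 1 and liver tumor 1 alone, which is 1 array a side, Gata4 was 0.72 higher in the kidney tumor.

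**Figure D3:**
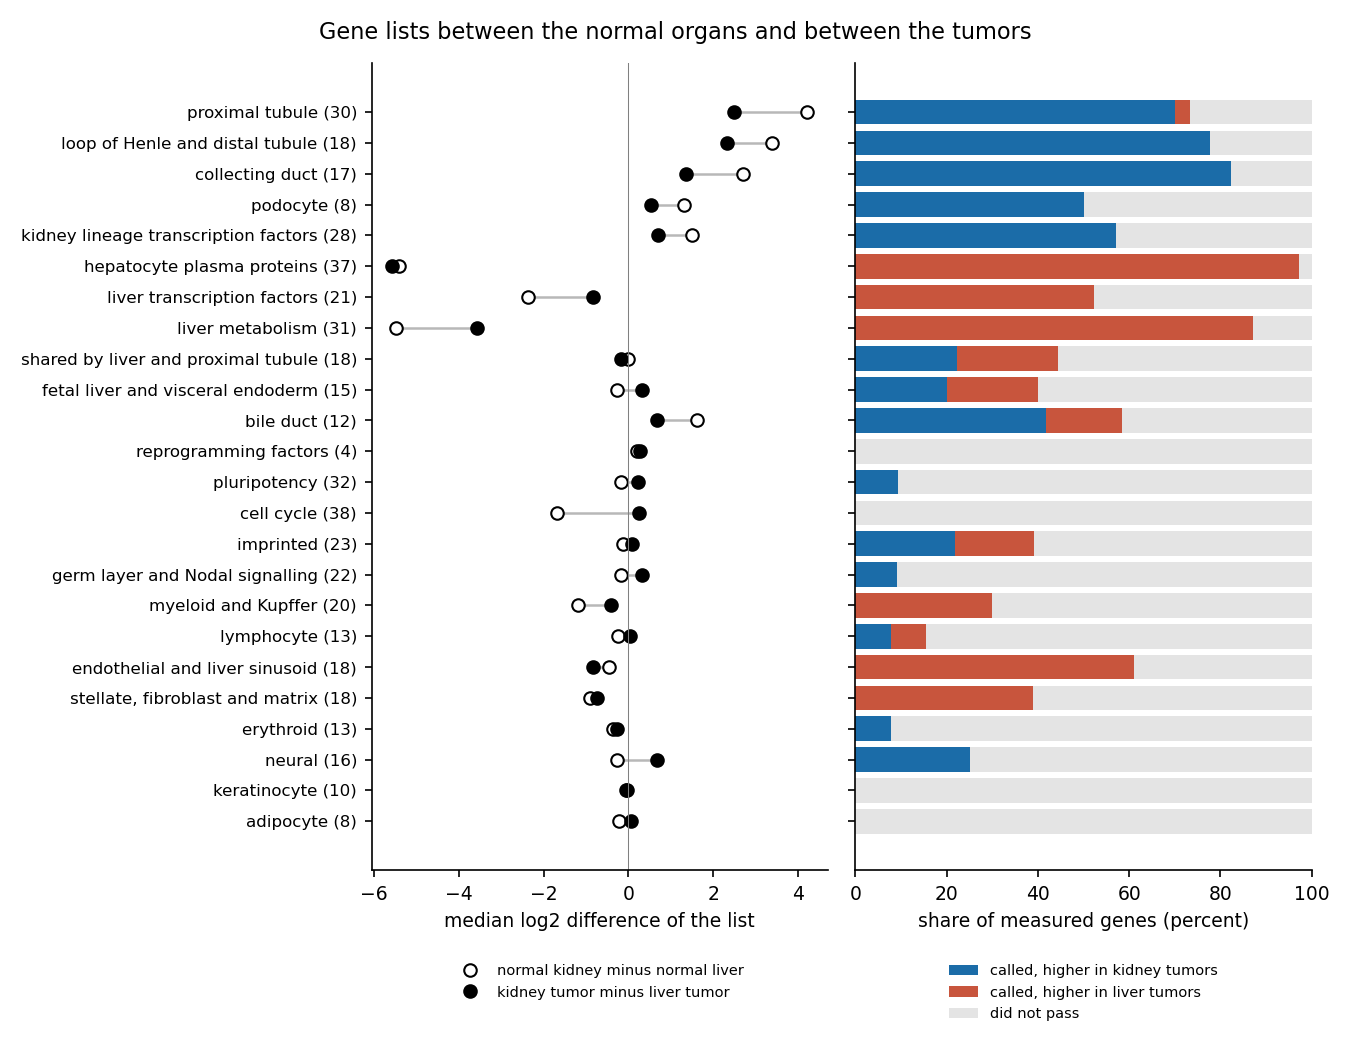
Left, the median log2 difference of each gene list (number of measured genes in brackets) between the normal organs (open) and between the tumors (filled). Right, the percent of each list called higher in kidney tumors, called higher in liver tumors or not passing. Nephron lists and hepatic lists stayed apart, while none of 38 cell cycle genes was called, against 13% of all genes.

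The organ genes that converged did so at different levels. Of the 8 kidney genes, 3 ended near the level of normal kidney, 2 near that of normal liver and 3 between. Bcat1, the cytosolic enzyme that transfers amino groups from branched-chain amino acids, ended high: it read 10.59, 10.93 and 11.14 in kidney tumors and 10.88, 10.46 and 10.24 in liver tumors, with 10.38 to 11.36 in normal kidney and 7.50 to 8.18 in normal liver. The tumors differed by 0.36 (95% interval -0.20 to 0.93), and the gene had risen by 2.75 in liver tumors. Mpped2 did the same, with a rise of 2.64 in liver tumors. Fcamr, an Fc receptor for IgA and IgM, ended low, at 7.37, 6.48 and 6.10 in kidney tumors and 7.01, 5.91 and 6.16 in liver tumors against 9.89 to 10.57 in normal kidney. Lipo3, a lipase, ended low as well (8.59, 8.77 and 8.35 against 7.71, 8.93 and 8.16). Dbp, a clock-controlled factor, met between, at 9.20, 9.60 and 8.81 against 9.66, 9.11 and 8.64, having fallen by 2.37 in kidney tumors and risen by 0.99 in liver tumors. Arhgap10 also met between, 0.51 apart (interval 0.10 to 0.93). Nxpe3 and Ciart were the other two. Ciart, like Dbp, belongs to the circadian clock, and the hour of sampling is not given in the labels. The count of 8 was 5 without kidney tumor 3 and 13 without liver tumor 1.

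Of the 7 converged liver genes, 5 ended at the level of normal kidney. Hsd3b5, Cyp2c55 and Adh6-ps1 lay near the low end of the scale in both tumors (the 5th percentile of an array was at most 5.01). There, level readings need not mean equal expression. The count of 7 was 3 with the dimmest genes filtered out. Hsd3b5, a hepatic steroid-metabolizing enzyme that is higher in male mice, read 11.91, 12.09 and 10.76 in normal liver but 5.43, 6.12 and 5.29 in liver tumors and 5.11, 5.39 and 5.27 in kidney tumors. The tumor groups overlapped, with a difference of -0.36 (95% interval from just above -1 to 0.28), and the fall from normal liver was 5.97 log2 units. Adh6-ps1, Mmd2 and Ces4a fell by 3.47, 3.50 and 3.20 in liver tumors and were level with the kidney tumors. Raet1d, of a family of ligands of an activating receptor of natural killer cells, met between: it read 5.13 to 5.68 in normal kidney, 6.69, 7.87 and 7.72 in kidney tumors, 6.82, 8.14 and 7.60 in liver tumors and 8.95 to 9.73 in normal liver. Esco2, which establishes sister chromatid cohesion in S phase, ended at the level of normal liver by a rise of 3.35 in kidney tumors, to 8.94, 9.76 and 10.08, with liver tumors at 9.12, 9.69 and 9.02.

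Convergence was more frequent among genes with smaller organ differences. The definition itself favors this: its limits of -1 to 1 are fixed, and a smaller organ difference needs less loss to reach them. With a minimum of 2 log2 units, 78 of 580 kidney genes (13.4%) and 74 of 528 liver genes (14%) had converged, and 57.2% and 75.6% were still higher. When normal liver 1 and 2 were left out, 119 of 638 kidney genes (18.7%) and 125 of 571 liver genes (21.9%) had converged at that minimum. With a minimum of 4, none of 111 kidney genes and 2 of 191 liver genes had converged, and 92.8% and 96.9% were still higher. Without the 2 arrays, 2 of 148 and 3 of 193 had converged.

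Cyp4a14 was the 1 organ gene that changed sides. It encodes a fatty acid omega-hydroxylase induced through the receptor Ppara. It read 8.74, 9.65 and 9.97 in normal kidney and 12.58, 12.66 and 12.97 in normal liver, but 12.34, 10.69 and 11.58 in kidney tumors and 7.64, 7.61 and 7.82 in liver tumors. The kidney tumors all lay above normal kidney, and the liver tumors were the lowest of the 4 groups. The tumor difference of 3.84 ± 0.35 (adjusted p = 5.91e-06) was opposed to the organ difference of -3.28. The related Cyp4a10 and Cyp4a31, level between the organs, differed in the same direction between the tumors, by 1.87 ± 0.20 and 2.47 ± 0.22. Cyp4a10 read 12.39, 11.42 and 11.65 in kidney tumors and 10.25, 9.83 and 9.78 in liver tumors, having fallen by 2.46 in liver tumors. Ppara itself did not pass the test (-0.82). Of 18 genes that liver and proximal tubule share, 44.4% were called between the tumors, against 13% of all genes. Higher in kidney tumors were 4, Dao, Keg1, Cyp4a10 and Cyp4a14, and higher in liver tumors 4, Hpd, Agxt2, Dpys and Slc2a2. The call of Agxt2 did not pass under 5 of 17 alternatives. Most of the list fell in both tumors, 14 of 18 against normal kidney (28.1% of all genes) and 16 of 18 against normal liver (30.7%). The medians were -1.62 and -1.51.

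**Figure D4:**
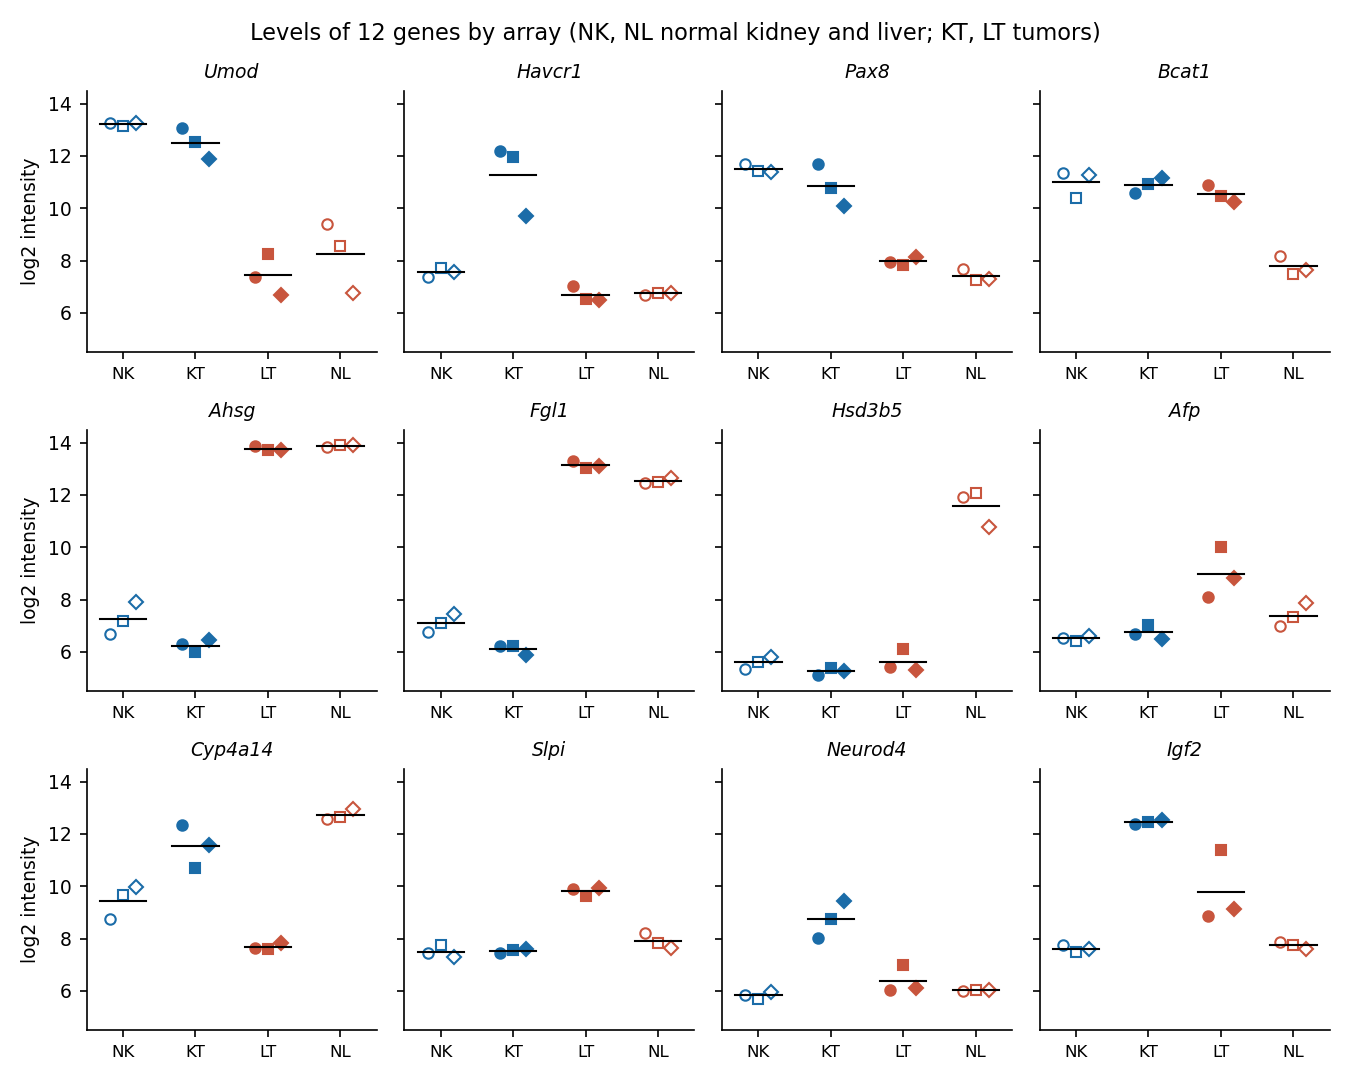
Log2 intensity of 12 genes in normal kidney (NK), kidney tumors (KT), liver tumors (LT) and normal liver (NL), 1 point per array (circle, square and diamond for arrays 1, 2 and 3) with a line at the mean. Umod, Pax8, Ahsg and Fgl1 kept the side of their organ, Bcat1 and Hsd3b5 came level in the tumors, and Cyp4a14 crossed over.

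Few genes close to level between the organs parted the tumors by at least 2-fold. Of 15279 genes whose interval between normal kidney and normal liver lay within -1 to 1, 91 (0.596%) were called at least 2-fold different between the tumors, 41 higher in kidney and 50 higher in liver tumors. Over all genes 2.34% were called at least 2-fold higher in kidney tumors and 3.11% in liver tumors. The interval allows small organ differences, and 12 of the 91 were called between the organs. The count was 188 without kidney tumor 1 and 53 without normal liver 1 and 2. Neurod4, a neuronal differentiation factor, read 8.04, 8.75 and 9.45 in kidney tumors, 6.04, 7.00 and 6.13 in liver tumors and 5.71 to 6.05 in the normal organs (2.36 ± 0.29, adjusted p = 0.000102). Slit1, an axon guidance ligand, differed by 1.60 ± 0.19, with 9.16, 9.62 and 9.88 against 7.75, 8.08 and 8.03. The chemokine Ccl5 differed by 1.62 ± 0.42 (adjusted p = 0.0206), with kidney tumor 2 at 11.20 well above the other two at 9.26 and 9.61. Rdh16, a retinol dehydrogenase, had fallen from both organs, more so in liver tumors (1.59 ± 0.21).

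On the liver side, Slpi, a secreted protease inhibitor of epithelia, read 9.90, 9.62 and 9.94 in liver tumors and 7.43, 7.56 and 7.60 in kidney tumors, with 7.30 to 8.20 in the normal organs (-2.29 ± 0.15, adjusted p = 2.41e-07). The Wnt ligand Wnt8b read 7.97, 9.10 and 8.77 against 6.31, 6.78 and 6.21 (-2.18 ± 0.24). Kcne3, a potassium channel subunit, read 8.36 to 8.95 in liver tumors and 6.60 to 6.98 in kidney tumors. These 3 had risen in liver tumors, while Lurap1l, Sqor and Abcc9 parted the tumors through a fall in kidney tumors, by 1.49, 2.16 and 1.26. Lurap1l was 1 of the 12 also called between the organs (-0.63, adjusted p = 0.00533). Sqor oxidizes sulfide in mitochondria, and Abcc9 is the regulatory subunit of a potassium channel.

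Genes of the cell cycle were close to level in the tumors, as most genes were, although not in the organs. Mki67, the proliferation marker, read 10.83, 11.47 and 11.47 in kidney tumors and 10.77, 11.33 and 11.18 in liver tumors, against 6.96 to 7.30 in normal kidney and 9.70, 9.79 and 10.52 in normal liver. The tumors differed by 0.16 (95% interval -0.34 to 0.66). Of 38 cell cycle genes none was called between the tumors by limma (1 had an unadjusted p under 0.05), against 13% of all genes. For 35 (92.1%) the interval lay within -1 to 1, near the 86.5% of all genes. The median difference of the 38 was 0.26 between the tumors and -1.67 between the organs. All 38 had risen in kidney tumors (median 3.12, against 21.7% of all genes risen) and 34 in liver tumors (median 1.06, against 21.5%). The change of the difference was called for 35 of 38, and for 36 without normal liver 1 and 2. Without kidney tumor 1, 6 of the 38 were called higher in kidney tumors.

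The 4 reprogramming factors, whose probes cannot separate an endogenous transcript from one of a transgene with the same sequence, were not called between the tumors by limma (1 of the 4, Sox2, had an unadjusted p under 0.05). Pou5f1 read 10.05, 9.85 and 10.48 in kidney tumors and 10.83, 9.72 and 8.55 in liver tumors (0.43 ± 0.42, 95% interval -0.49 to 1.35), with 6.25 to 6.69 in the normal organs. Sox2 read 10.29, 11.02 and 11.39 against 10.51, 10.38 and 10.10 (0.57 ± 0.24, interval 0.06 to 1.09, adjusted p = 0.154), and it passed the test without kidney tumor 1. Klf4 and Myc had intervals within -1 to 1, at 0.11 and -0.08. Pou5f1, Sox2 and Myc had risen over the normal organ in both tumors, and Klf4 had not been called in either.

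Of 32 pluripotency genes 3 were called between the tumors (9.38%, against 13% of all genes), while 23 had intervals within -1 to 1 (71.9%, against 86.5%). Nanog, a core factor of pluripotent cells, read 9.59, 9.70 and 9.73 in kidney tumors, 10.45, 9.85 and 9.21 in liver tumors, 6.69 to 7.35 in the normal organs and 12.93 in the ES cell array, with a tumor difference of -0.17 (95% interval -0.76 to 0.43). Lin28b, an RNA-binding protein that holds back let-7 microRNAs, read 8.52, 9.20 and 9.02 against 8.80, 9.09 and 8.51 (0.11, interval -0.31 to 0.53). The 3 called were all higher in kidney tumors: Sall4 (0.62 ± 0.15), Trim71 (0.50) and Tfcp2l1 (2.00 ± 0.34), and Tfcp2l1 is a factor of the distal nephron as well as of ES cells. Leaving out 1 tumor array gave 1 to 5 such calls, the fewest without kidney tumor 3 or liver tumor 3, where Sall4 and Trim71 did not pass. The median of the list was 0.22. Among the germ layer and Nodal signalling genes, Tdgf1 and Otx2 also stand in the pluripotency list. The germ layer and Nodal genes had risen in 22 of 22 cases in kidney tumors (21.7% of all genes had). In liver tumors 15 had risen (21.5% of all genes had), and the medians were 1.97 and 1.53. Of the 22, 2 were called between the tumors (9.09%), Hesx1 (1.52 ± 0.37) and the Wnt inhibitor Dkk1 (0.85 ± 0.24), and 11 had intervals within -1 to 1 (50%). Without liver tumor 2 the number called was 8, without kidney tumor 3 it was 0, and without liver tumor 1 it was 1 on the kidney and 2 on the liver side. Dkk1 did not pass under 8 of 17 alternatives, the replicate block among them. Of 49 genes called at least 8-fold higher in both tumors than in their own organ, 5 were called between the tumors (10.2%, against 13% of all genes). Intervals within -1 to 1 were held by 27 (55.1%, against 86.5%), and the median difference was 0.35. The choice of the 49 used the same tumor arrays and favors likeness between the tumors, so these counts are a description.

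Fetal growth and fetal liver genes were not level. Igf2, an imprinted growth factor, read 12.39, 12.45 and 12.55 in kidney tumors and 8.86, 11.40 and 9.13 in liver tumors, with 7.48 to 7.88 in the normal organs. The kidney tumors were close together, liver tumor 2 stood 2.27 log2 units above the next liver tumor, and the groups did not overlap (2.67 ± 0.46, adjusted p = 0.00154). Afp, the fetal form of albumin, read 8.10, 10.02 and 8.83 in liver tumors and 6.70, 7.03 and 6.50 in kidney tumors (-2.24 ± 0.40, adjusted p = 0.00193), and liver tumor 2 was again the highest. It did not pass in the comparison of kidney tumor 1 with liver tumor 1 alone, which the arrays low in Xist left. Of 15 genes of fetal liver and visceral endoderm, 3 were called on each side (40% of the list, against 13% of all genes). Without liver tumor 2, 6 were called on the kidney side. Of 23 imprinted genes 39.1% were called, against 13% of all genes. Higher in kidney tumors were 5, among them Igf2, Grb10 and Phlda2 (2.67, 1.75 and 2.43). Higher in liver tumors were 4, Meg3, Mest, Slc38a4 and Dcn, of which Meg3 did not pass under 5 of 17 alternatives. In kidney tumors 19 of the 23 had risen over normal kidney (21.7% of all genes did) and none had fallen. In liver tumors 14 had risen over normal liver (21.5% of all genes did), 1 had fallen and the others did not pass.

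Some neural genes were higher in kidney tumors. Of 16, 4 were called (25%, against 13% of all genes), Dcx (1.40 ± 0.27), Elavl3 (1.30), Elavl4 (1.66 ± 0.37) and Fabp7 (1.35). None was called higher in liver tumors, and the median was 0.68, against -0.28 between the organs. Dcx, a microtubule protein of young neurons, read 8.10, 8.75 and 9.40 in kidney tumors and 7.26, 7.83 and 6.97 in liver tumors. Without kidney tumor 1, which had the lowest level of these genes among the kidney tumors, 10 of 16 were called, and without kidney tumor 2, kidney tumor 3 or liver tumor 1 Fabp7 did not pass. None of 10 keratinocyte genes was called by limma (1 had an unadjusted p under 0.05), with mean levels of 6.50 to 6.66 in the 6 tumors.

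Sinusoidal endothelial genes, and some genes of Kupffer cells, stellate cells and matrix, were higher in liver tumors. Over all genes 13% were called between the tumors. Of 18 endothelial and sinusoidal genes, 11 were called higher in liver tumors and none in kidney tumors, and the mean of the list was 9.51 to 10.04 in liver tumors, 8.36 to 8.48 in kidney tumors, 9.55 to 9.92 in normal liver and 8.83 to 8.90 in normal kidney. Stab2, a scavenger receptor of liver sinusoids, read 10.67, 9.23 and 10.50 in liver tumors and 6.62, 6.98 and 6.73 in kidney tumors (-3.36 ± 0.28). Of 20 myeloid and Kupffer cell genes, 6 (30%) were called higher in liver tumors and 14 did not pass. The list means were 9.39 to 9.87 in liver tumors against 8.41 to 8.82 in kidney tumors. Vsig4 and Cd5l, of resident macrophages of the liver, differed by -4.69 ± 0.55 and -4.42 ± 0.53, and read close to normal liver in the liver tumors and close to normal kidney in the kidney tumors. General macrophage genes such as Adgre1 and Cd68 did not pass, at -0.15 and -0.36, but Csf1r, also a general one, was called higher in liver tumors. Of 18 stellate, fibroblast and matrix genes, 7 were called higher in liver tumors and 11 did not pass. Reln, a stellate cell gene in liver, led the 7 at -2.57 ± 0.17, and the matrix genes Dcn, Lum and Fn1 were among them. The collagens Col1a1 and Col3a1 were at -0.31 and -0.27 and did not pass. Bile duct genes, many of which kidney tubules also use, were called on both sides (58.3% of 12). Of the 12, 5 were higher in kidney tumors and 2 in liver tumors. The count on the liver side was 0 without kidney tumor 2 or without liver tumor 3. Of 13 lymphocyte genes, 1 was called on each side (Cd4 at 0.59 and Ms4a1 at -0.79), 15.4% of the list and near the 13% of all genes. Ms4a1 did not pass under 9 of 17 alternatives, among them the replicate block and centring of each array, and Cd4 under 2, among them without liver tumor 3. Of 13 erythroid genes, Tfrc, the transferrin receptor, was the 1 called (7.69% of the list), at 0.58, and it did not pass under 7 of 17 alternatives. None of 8 adipocyte and none of 4 sex-linked genes was called by limma, and 0 of them had an unadjusted p under 0.05. The part of residual or host cells in the organ differences was not tested.

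The kidney genes still higher in primary kidney tumors were mostly not higher in the secondary kidney tumors. Over these 212 genes, the median difference against liver tumors was 2.37 for the primary tumors and -0.01 for the secondary tumors. In the latter 33 of the 212 (15.6%) were called at least 2-fold higher than in liver tumors, against 9.2% of all genes, and 8 at least 2-fold lower. Slc13a1, Umod and Slc34a1 read 5.03 to 5.20, 6.08 to 6.28 and 6.68 to 6.83 there, at or below their liver tumor levels. Kcnj16, a potassium channel of the distal nephron, was 1 of the 33, at 8.12, 8.48 and 8.45 against 6.39 to 7.40 in liver tumors. Both comparisons use the same liver tumors, so their values are given side by side only.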

How the data were processed

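Total RNA of 16 mouse samples was hybridized to 1-channel Affymetrix arrays, per the labels' protocols (RNeasy Plus Mini, WT Terminal Labeling kit). The value table, as deposited, holds linear intensities from 20.7 to 20262, and array medians were 191 to 226. How the authors corrected background, summarised probes and normalized the intensities is not given in the sources used here. Values were used as log2, unscaled. Of 28856 probe sets, 21789 had exactly 1 symbol in the platform annotation of 2016, 1621 had several and 5446 none. A gene with several was read from the one with the highest mean over the 16 arrays, giving 19938 genes. All 6 groups were fitted with limma 3.58.1 in R 4.3.3 (10 residual and 2.66 prior degrees of freedom), after a test on simulated data, with Benjamini-Hochberg adjustment over all genes at 0.05, 2-sided. Precision is limited by the number of arrays. The members and the 25 gene lists were chosen with earlier results of these data known. Named genes are the 10 largest called, non-overlapping differences in each direction, the 6 largest kept and the 6 largest converged organ genes, the reversed gene, the 6 largest genes alike in the organs in each direction, the 2 largest called members of each list, and fixed genes. Other list members named were chosen after their values were seen. Promoter sequences and gene IDs are from RefSeq (GRCm38.p6), to which 19853 genes matched by Entrez ID. Alternatives covered scaling, probe set choice, filters, weights, the replicate block and arrays left out, and 2 of them, which leave out normal arrays, were added after the data were seen.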

Additional observations from a re-analysis of the deposited data

Results flagged for a closer look

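Of the 126 genes named by the rule or in the text, 11 met this description: both tumors differed from their own organ in opposite directions, and the difference between the tumors was called different from that between the organs by limma. The change was 7.12 log2 units for Cyp4a14 (kidney tumors up by 2.08, liver tumors down by 5.04) and 3.67 for Raet1d (kidney up by 1.94, liver tumors fell by 1.74). It was -3.36 for Dbp, -3.33 for Ciart, -2.85 for Emx2, -2.75 for Nxpe3 and -2.59 for Arhgap10, where kidney tumors fell and liver tumors rose. It was 2.89 for Hhex, up by 1.86 in kidney tumors and down by 1.03 in liver tumors. It was -1.60 for Fgl1, where kidney tumors fell by 1.00 and liver tumors rose by 0.60. The smaller changes were 1.02 for Cdkn1c and 1.08 for Cd4, both up in kidney tumors and down in liver tumors.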

How the results depend on the processing

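Of the 126 genes named by the rule or in the text, 100 kept their direction and their side of the threshold under all 17 alternatives run on them, and 26 crossed the threshold at least once (of 2131 values, 61 lost and 16 gained a call). Gata4 was reversed in sign, at 0.72, without the tumor arrays high in Xist, a comparison of 1 array a side. Ms4a1 and Hhex lost their call under 9 alternatives each, Dkk1 under 8, Tfrc under 7, and Meg3 and Agxt2 under 5 each. With array weights, 4357 genes were called between the tumors, 178 parted the tumors but not the organs, and for 5209 the tumor difference was called different from the organ difference. With a minimum organ difference of 2 or 4 log2 units, 332 or 103 kidney genes were still higher, 78 or 0 kidney genes and 74 or 2 liver genes had converged. With a margin of 1.5-fold, 0 kidney and 2 liver genes had converged. With the dimmest genes filtered out, 3 liver genes had converged. Without the tumor arrays high in Xist, which left 1 array a side assumed to vary like the other groups, 4 kidney genes had converged, 248 genes parted the tumors but not the organs, and 2218 such differences of differences were called. Without normal liver 1 and 2, 16 kidney and 27 liver genes had converged, 53 genes parted only the tumors, and 2168 differences of differences were called. Without normal liver 1 and normal kidney 2, 16 kidney genes had converged. With 1 tumor array left out, 5 to 13 kidney genes had converged, 70 to 188 parted only the tumors, and 1906 to 3847 were called, the most without liver tumor 2. The cause of these shifts was not tested. With the replicate number as a block (replicate block), 2488 genes were called, 212 kidney and 270 liver genes were still higher, 8 and 9 had converged, 92 parted only the tumors and 3295 differences of differences were called. Deviations of same-numbered tumors correlated at 0.27, 0.25 and 0.00. Kidney tumor 1 and kidney tumor 2 correlated best with the liver tumor of their own number, and kidney tumor 3 with liver tumor 2 (0.15). Deviations within a group depend on each other, so these values cannot decide whether same-numbered arrays are paired. Background signal limits what dim genes can show, and no detection call was given to mark them.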
